A study of Caenorhabditis elegans with 12 samples.

Results

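The transcriptional change that cco-1 RNAi makes in wild-type (WT) Caenorhabditis elegans was described across all expressed genes. It rests on 6 of the 12 libraries of the study, chosen by their labels: 3 of WT animals on cco-1 RNAi bacteria and 3 of WT animals on empty vector (EV) bacteria. The WT strain was N2, and both groups were whole animals fed their RNAi bacteria from hatching, kept at 20°C and taken at the L4 stage, the last larval stage. The cco-1 RNAi bacteria are written as EV together with cco-1, with no mixing ratio given. The other 6 libraries hold the same 2 treatments in lin-40(yth27), an allele of the gene for LIN-40, a scaffold of the NuRD chromatin remodeling complex. Each library pooled animals, and RNA was selected by its poly(A) tail. Of 46920 listed loci, 14261 had enough counts in the WT libraries to be tested, and 69 gene lists with 2464 distinct tested members were used to describe them by function.

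cco-1 (cox-5B in the gene table) encodes a nuclear-encoded subunit of complex IV, which passes electrons to oxygen at the end of the respiratory chain. When the chain or the import of proteins into mitochondria is disturbed, worms start the mitochondrial unfolded protein response (UPRmt), in which the transcription factors ATFS-1 and DVE-1 raise mitochondrial chaperones such as HSP-6 and HSP-60. Worms given cco-1 RNAi from hatching are known to live longer, to be smaller and to develop more slowly, and the intestine is the tissue in which this response is best studied.

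The WT libraries held 19807858 to 20526087 counts on cco-1 RNAi and 19857193 to 21210809 on EV. Libraries that share a replicate number in their titles deviated together from their group means, with correlations across genes of 0.752, 0.619 and 0.341 for numbers 1, 2 and 3, so the number was kept as a pair in the fit. The labels do not say that replicates were separate cultures. With the number as a pair, differences between numbers are removed, so the p-values measure how the change varies among these pairs of libraries. Both libraries of number 1 stood apart. The summed level of 17 oocyte and eggshell genes was 630 CPM (the count relative to the scaled library total) on cco-1 RNAi and 614 CPM on EV for number 1, against 3260 and 1683 CPM for number 2 and 1500 and 908 CPM for number 3. The adult cuticle collagen gene col-19 had 9.37, 421 and 117 CPM on cco-1 RNAi and 28.8, 231 and 158 CPM on EV. Its level thus differed more between numbers than between treatments, and it did not pass the test (log2 fold change -0.34 ± 0.37 SE, adjusted p = 0.564). In the annotation, 70 of the 279 genes chosen by the naming rule overlap the span of another protein-coding gene, among them mff-2, dct-1, fat-5, hrg-1, hrg-3, col-147, col-149, nhr-114 and rnr-2, and whether counting told the strands of such a stretch apart is not stated.

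The targeted gene was lower in every cco-1 RNAi library. cox-5B (chromosome I, 9788725 to 9790050, build WBcel235) had 143, 145 and 194 CPM on cco-1 RNAi and 519, 477 and 494 CPM on EV. The groups did not overlap, and the log2 fold change was -1.64 ± 0.11 (SE, n = 3 pairs, adjusted p = 0.000159). The transcript was thus lowered but still present in each cco-1 RNAi library. The other tested nuclear subunits of complex IV, cox-4, cox-5A, cox-6A, cox-6B, cox-6C and cox-7C, did not pass the test.

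Upon cco-1 RNAi, 1170 genes were up-regulated and 1338 were down-regulated in WT animals at an adjusted p under 0.05. This is 17.6% of the 14261 genes tested, with 8.20% up and 9.38% down, and these shares are the background for every list below. Of the 2508 differentially expressed genes (DEGs), 2506 moved the same way in all 3 pairs, and 302 rose and 361 fell at least 2-fold. The median log2 fold change was 0.69 among those that rose, -0.66 among those that fell and 0.05 over all genes tested. The levels of the groups did not overlap in 1829 DEGs, where 24.7% of all tested genes had groups that did not overlap. Without the pair in the fit 274 genes were called, 108 up and 166 down (1.92%), and without the libraries of number 3 the total was 809. Scaling by library totals alone, which set the median of all genes to 0.19, called 2393 genes up and 899 down, so 72.7% of its calls were rises, against 46.7% with the TMM scaling used here and 36.4% after a trend with gene length was removed.

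**Figure D1:**
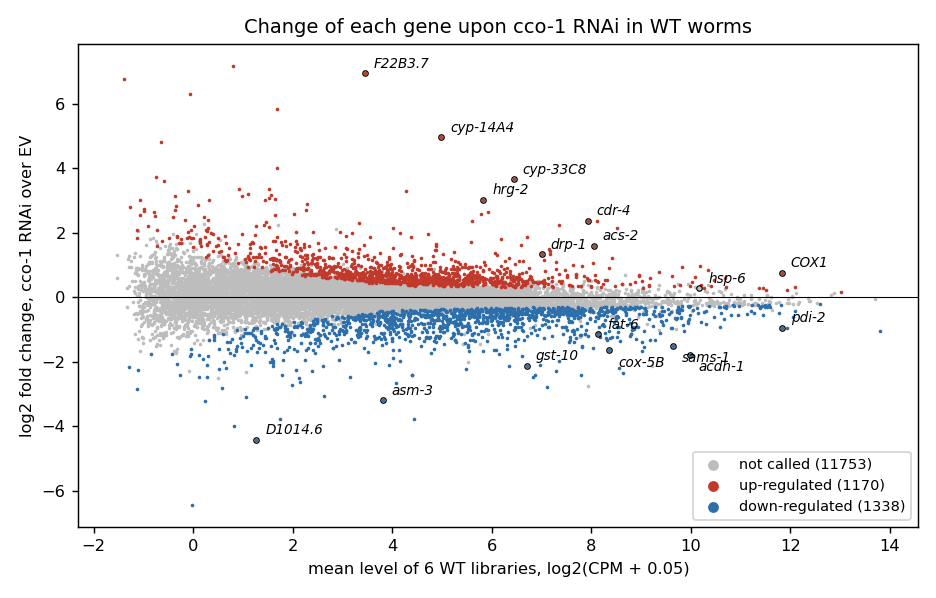
Log2 fold change of each tested gene, cco-1 RNAi over EV (vertical axis), against its mean level over the 6 WT libraries in log2(CPM + 0.05) (horizontal axis). Each point is a gene: 1170 up-regulated genes in red, 1338 down-regulated genes in blue and 11753 genes that were not called in gray, with named genes circled.

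The lists differed widely in how many of their members were called. The share of members down-regulated was above 50% in the lists of the cytosolic chaperonin, cathepsin-like proteases, the proteasome, vitellogenins, endoplasmic reticulum (ER) folding, fatty acid desaturases and elongases, propionate breakdown and one-carbon metabolism. The share up-regulated was above 50% in the oocyte and eggshell list and the heme-responsive list. In 3 lists, those of complexes I, II and V of the respiratory chain, no member was called in either direction.

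**Figure D2:**
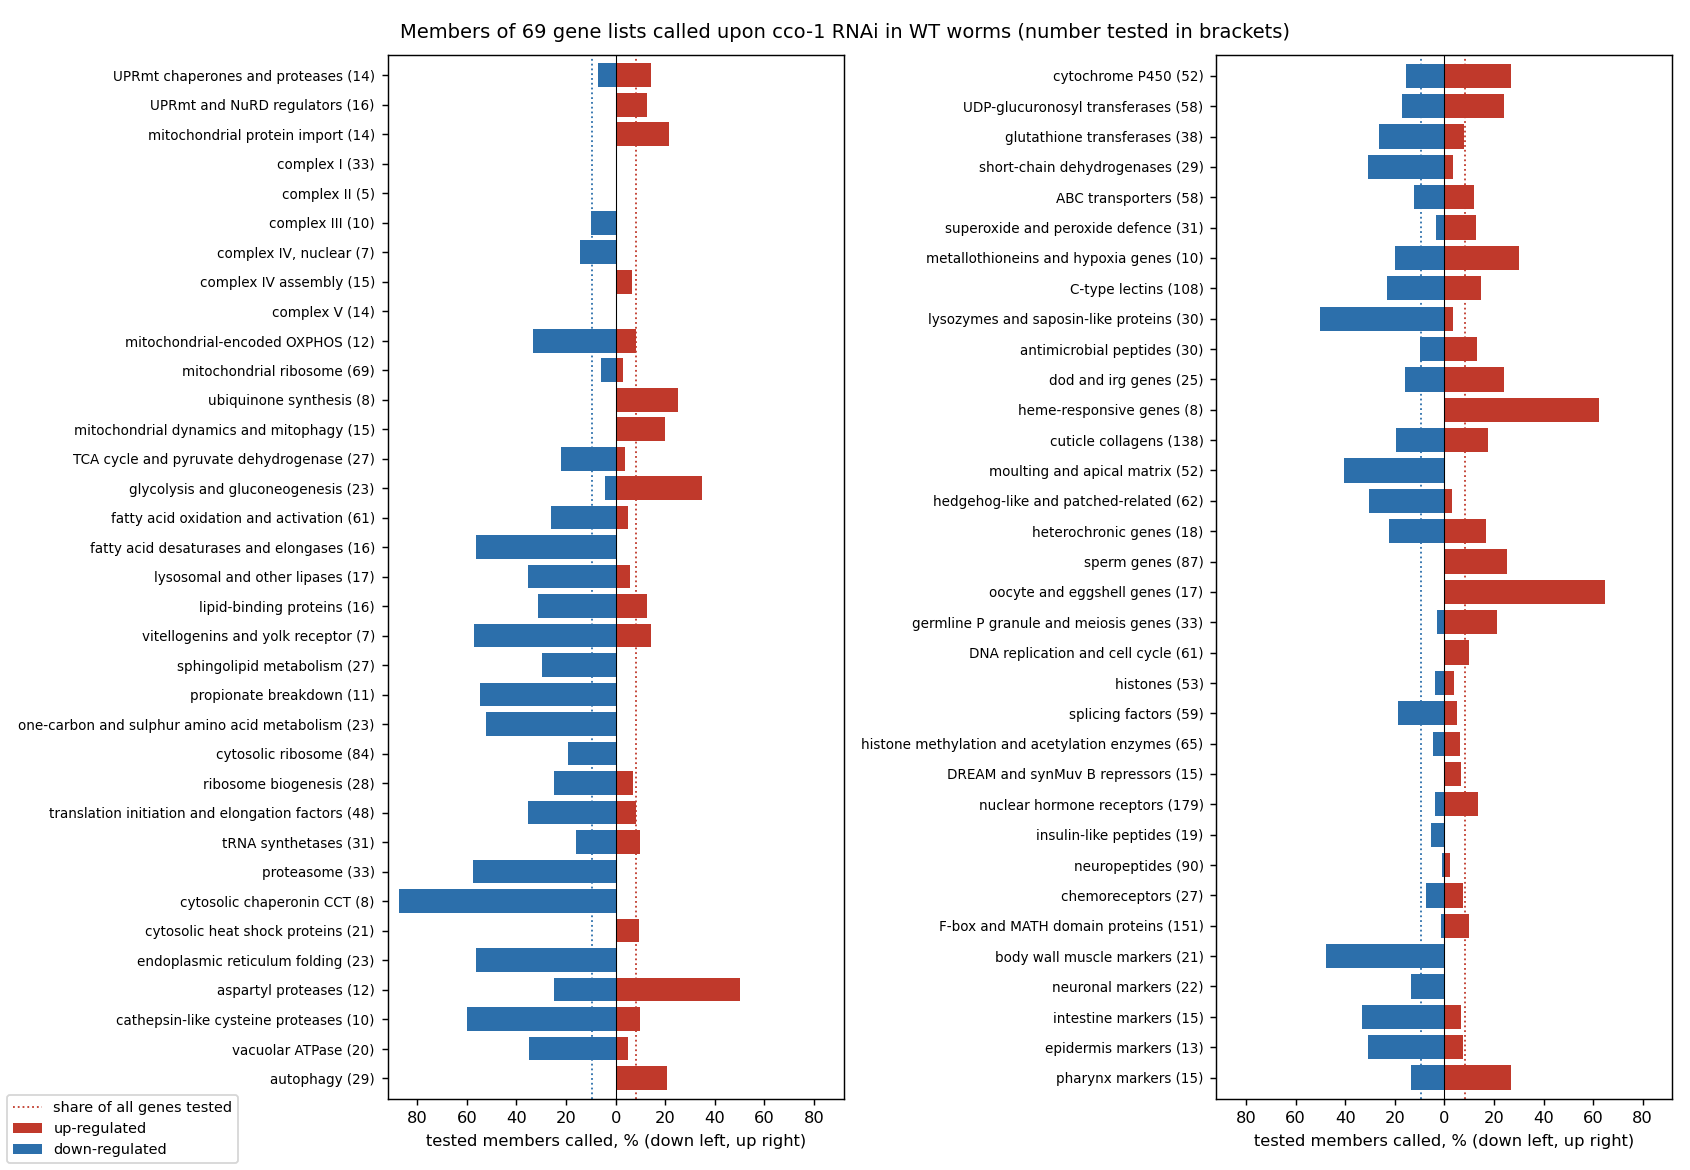
Percent of the tested members of each of 69 gene lists that were up-regulated (red, to the right) or down-regulated (blue, to the left) upon cco-1 RNAi in WT, with the number tested in brackets. Dotted lines mark the shares of all genes tested, 8.20% up and 9.38% down.

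In the mitochondrial lists the classical UPRmt genes had small changes at this stage, and which of them were called depended on the scaling. hsp-6, which encodes the mitochondrial HSP70, had 1469, 1201 and 1103 CPM on cco-1 RNAi and 1441, 777 and 945 CPM on EV. Its groups overlapped, and it did not pass the test (log2 fold change 0.29 ± 0.11, adjusted p = 0.104). It was called when library totals alone set the scale (adjusted p = 0.0262) or when the libraries of number 1 were left out (adjusted p = 0.0263). hsp-60, the mitochondrial chaperonin, had 1027, 794 and 874 CPM on cco-1 RNAi and 1274, 911 and 1024 CPM on EV. The groups overlapped and the level was lower in each pair (log2 fold change -0.25 ± 0.07, adjusted p = 0.0467), a call that was lost with library totals alone (adjusted p = 0.289).

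Of 14 UPRmt chaperones and proteases tested, 2 rose and 1 fell, with a median log2 fold change of 0.20. With library totals alone 8 rose and none fell, where 2393 of all 14261 genes tested were called up. Without the libraries of number 1, 4 rose and none fell. dnj-10, a mitochondrial DnaJ co-chaperone, had 51.4, 36.4 and 43.3 CPM on cco-1 RNAi and 27.9, 23.7 and 28.6 CPM on EV. The groups did not overlap (log2 fold change 0.70 ± 0.11, adjusted p = 0.00512). Among 16 UPRmt and NuRD regulators only atfs-1 and met-2, a histone H3 lysine methyltransferase, were called. atfs-1 had 105, 90 and 95.3 CPM on cco-1 RNAi and 80.9, 71.4 and 72.0 CPM on EV, without overlap (log2 fold change 0.37 ± 0.09, adjusted p = 0.0282). met-2 rose by a log2 fold change of 0.45 (adjusted p = 0.0259). dve-1 (log2 fold change 0.02, adjusted p = 0.944) and lin-40 (log2 fold change 0.12, adjusted p = 0.513) did not pass the test. None of the calls in these lists held without the pair in the fit.

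A few genes of the import machinery rose. timm-23, the channel of the inner membrane translocase, had 419, 338 and 356 CPM on cco-1 RNAi and 288, 234 and 238 CPM on EV. Every cco-1 RNAi library lay above every EV library (log2 fold change 0.55 ± 0.08, adjusted p = 0.00374). Its partner timm-17B.1 (log2 fold change 0.47) and the outer membrane receptor tomm-70 (0.33) were also called, and the other 11 tested import genes were not. The groups of tomm-70 overlapped. No import gene was called without the pair or without the libraries of number 3.

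With the TMM scaling, the respiratory chain itself had small and mostly negative values at the level of nuclear transcripts. None of 33 complex I, 5 complex II or 14 complex V genes was called, with median log2 fold changes of -0.08, -0.05 and -0.13. Of these genes 29, 4 and 13 had negative values, as did 8 of 10 complex III genes and all 7 of complex IV. With library totals alone the median of all genes was 0.19. Relative to it, the medians of complexes I to V were -0.13, -0.10, -0.16, -0.20 and -0.18. The negative signs of these small values thus rest on the scaling. In complex III ucr-2.3 alone was called, as a fall (log2 fold change -0.50, adjusted p = 0.0252). The genes encoded in mitochondrial DNA split. COX1, a core subunit of complex IV, had 5175, 3958 and 4622 CPM on cco-1 RNAi and 3305, 2602 and 2213 CPM on EV, so its groups did not overlap (log2 fold change 0.77 ± 0.09, adjusted p = 0.00135). COX2, a core subunit of the same complex, was lower in each pair, with 563, 442 and 605 CPM on cco-1 RNAi and 841, 820 and 710 CPM on EV (log2 fold change -0.57 ± 0.12, adjusted p = 0.0158). CYTB of complex III (log2 fold change -0.54), ND6 of complex I (-0.45) and ATP6 of complex V were also down-regulated. In all, 1 of the 12 genes tested rose and 4 fell. With library totals alone 1 rise and 1 fall were called, and without the pair in the fit none was. The libraries hold poly(A)-selected RNA, so the tail of a mitochondrial transcript bears on its level here.

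The largest rises among the called members of the mitochondrial lists were in fission and mitophagy genes. mff-2, a mitochondrial fission factor, had 41.7, 46.9 and 45 CPM on cco-1 RNAi and 13.6, 15.6 and 14.7 CPM on EV. drp-1, the dynamin that divides mitochondria, had 170, 217 and 166 CPM on cco-1 RNAi and 77.8, 68.5 and 70.4 CPM on EV. dct-1, a mitophagy receptor, had 29.8, 35 and 25.2 CPM on cco-1 RNAi and 16.6, 13.2 and 10.6 CPM on EV. None of these groups overlapped, and the log2 fold changes were 1.60 ± 0.10, 1.34 ± 0.12 and 1.17 ± 0.14 (adjusted p = 0.000123, 0.000411 and 0.0012). wdr-12, a ribosome biogenesis gene, ends at position 5657917 of chromosome I, where mff-2 starts, so the annotated spans share that position alone. wdr-12 rose by 0.69 ± 0.11 on the log2 scale. mff-2, drp-1 and dct-1 were the 3 called members of 15 on their list, and all 3 were also called without the pair. coq-1, which makes the polyprenyl tail of ubiquinone, rose by 0.81 ± 0.11 (adjusted p = 0.00289), and trx-2, the mitochondrial thioredoxin, rose by 0.55 (adjusted p = 0.0105), both log2 fold changes.

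**Figure D3:**
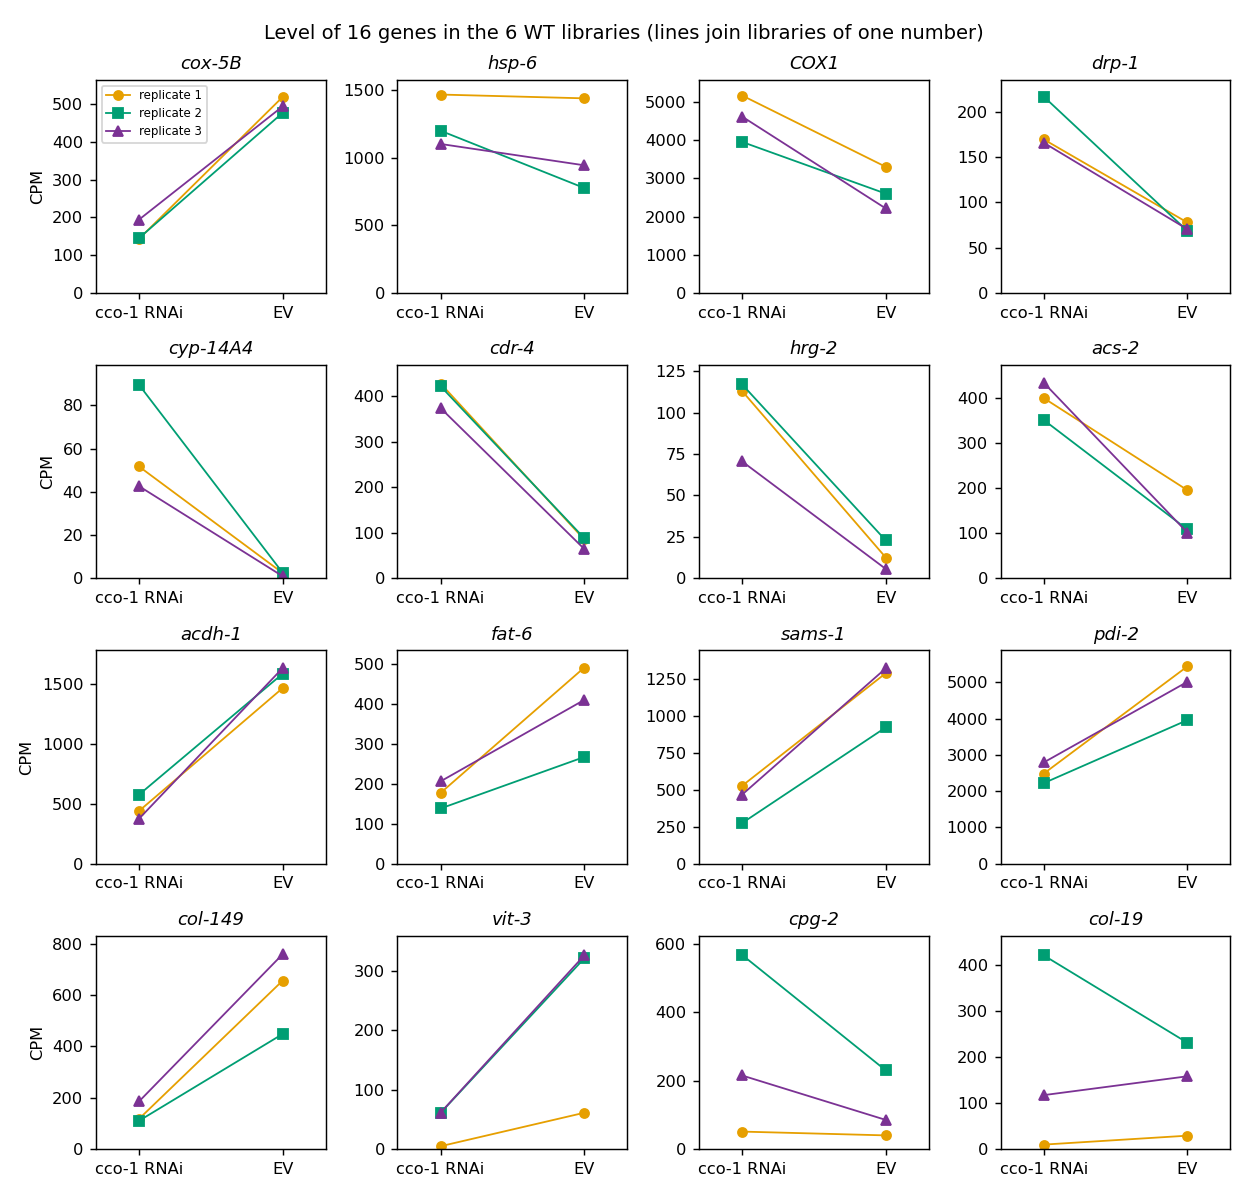
Level in CPM (vertical axes, from 0) of 16 genes in WT libraries on cco-1 RNAi (left of each panel) and on EV (right), with a line joining the libraries of one replicate number. cox-5B, acdh-1, fat-6, sams-1, pdi-2 and col-149 were lower and COX1, drp-1, cyp-14A4, cdr-4, hrg-2 and acs-2 were higher on cco-1 RNAi in each pair, while vit-3, cpg-2 and col-19 also differed strongly between numbers.

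Several glycolytic genes rose and several genes of the TCA cycle fell. On the glycolysis and gluconeogenesis list 8 of 23 tested members were up-regulated and 1 was down-regulated, with a median log2 fold change of 0.21. hxk-1, a hexokinase, had 68.5, 97.8 and 72.0 CPM on cco-1 RNAi and 40.4, 53.0 and 37.1 CPM on EV, without overlap (log2 fold change 0.87 ± 0.10, adjusted p = 0.00112). The aldolase gene aldo-1 rose by 0.59 and the glyceraldehyde-3-phosphate dehydrogenase gene gpd-2 by 0.53, while fbp-1, the gluconeogenic fructose bisphosphatase, fell by 0.38, all log2 fold changes. On the TCA cycle and pyruvate dehydrogenase list 6 of 27 fell and 1 rose. suca-1 and sucg-1, subunits of succinyl-CoA ligase, fell by 0.65 and 0.53 on the log2 scale, and aco-2, the mitochondrial aconitase, rose by 0.39. Without the pair in the fit no member of either list was called.

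Several lipid lists held more falls than rises. Of 16 lipid-binding protein genes 5 fell and 2 rose, with 8 positive and 8 negative values. On the list of fatty acid desaturases and elongases 9 of 16 fell and none rose, with a median log2 fold change of -0.55. fat-6, a stearoyl-CoA desaturase, had 177, 138 and 206 CPM on cco-1 RNAi and 491, 267 and 410 CPM on EV, without overlap (log2 fold change -1.14 ± 0.12, adjusted p = 0.000749). Its near relative fat-7 had 0, 0.0449 and 0 CPM on cco-1 RNAi and 1.52, 2.05 and 1.96 CPM on EV. These values rest on 1 count on cco-1 RNAi and 109 counts on EV, a level 118 times lower with a 95% interval of 20.8 to 4721 that covers counting error only. fat-5, a palmitoyl-CoA desaturase, had 1.14, 1.08 and 1.26 CPM on cco-1 RNAi and 11.6, 5.12 and 6.10 CPM on EV, again without overlap (log2 fold change -2.62 ± 0.28, adjusted p = 0.00088).

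Of 61 genes of fatty acid oxidation and activation, 16 fell and 3 rose. acox-1.2, a peroxisomal acyl-CoA oxidase, had 61.8, 28.1 and 58.3 CPM on cco-1 RNAi and 226, 173 and 208 CPM on EV (log2 fold change -2.1 ± 0.16, adjusted p = 0.000217). acs-2, a mitochondrial acyl-CoA synthetase, rose and had 399, 350.5 and 433 CPM on cco-1 RNAi and 195, 108 and 101 CPM on EV (log2 fold change 1.61 ± 0.18, adjusted p = 0.00102). Neither pair of groups overlapped. The enoyl-CoA hydratase gene ech-9 rose by 3.21 ± 0.46 on the log2 scale from low counts, with 6.09, 2.33 and 2.98 CPM on cco-1 RNAi and 0.226, 0.512 and 0.362 CPM on EV. The lysosomal lipase genes lipl-1 and lipl-5 fell by 1.32 and 1.15, and asm-3, an acid sphingomyelinase, fell by 3.19 ± 0.29 (adjusted p = 0.000415), all on the log2 scale.

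Genes of the propionate shunt, which breaks down propionate without vitamin B12, were down-regulated. acdh-1, its acyl-CoA dehydrogenase, had 439, 575 and 374 CPM on cco-1 RNAi and 1465, 1585 and 1632 CPM on EV. ech-6, an enoyl-CoA hydratase of the shunt, had 710.5, 561 and 547 CPM on cco-1 RNAi and 1399, 1154 and 1199.6 CPM on EV. The groups overlapped for neither gene, with log2 fold changes of -1.78 ± 0.12 for acdh-1 and -1.05 ± 0.07 for ech-6 (adjusted p = 0.000147 and 0.000164). hach-1, a hydrolase of the shunt, fell by 1.03 on the log2 scale, and 6 of the 11 propionate genes were down-regulated in all, with none up-regulated. Of the B12-dependent branch, mmaa-1 was called and mmcm-1, pcca-1, pccb-1, mce-1 and mmab-1 did not pass the test.

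Several genes of the methionine cycle also fell. On the one-carbon and sulphur amino acid list 12 of 23 members were down-regulated and none was up-regulated, with a median log2 fold change of -0.49. sams-1, which makes S-adenosylmethionine, had 528, 275 and 468 CPM on cco-1 RNAi and 1292, 924 and 1325 CPM on EV (log2 fold change -1.51 ± 0.10, adjusted p = 0.000123). metr-1, methionine synthase, had 109, 112 and 131 CPM on cco-1 RNAi and 387, 290 and 323 CPM on EV (log2 fold change -1.50 ± 0.12, adjusted p = 0.00024). pmt-2, which uses S-adenosylmethionine to make phosphocholine, had 371, 306 and 382 CPM on cco-1 RNAi and 996, 733 and 933 CPM on EV (log2 fold change -1.33 ± 0.08, adjusted p = 9.23e-05). In all 3 genes each cco-1 RNAi library lay below each EV library. ahcy-1, mel-32, mthf-1, mtrr-1, sams-3, cth-2, cysl-3, dao-3 and suox-1 completed the called members, and 7 of the 12 calls held without the pair.

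Cytosolic ribosomal protein genes had small negative values. All 84 cytosolic ribosomal protein genes had negative log2 fold changes, with a median of -0.19, but 16 were called. rpl-28, the called one that fell most, had 795, 706 and 791 CPM on cco-1 RNAi and 981, 1006 and 980 CPM on EV, without overlap (log2 fold change -0.37 ± 0.08, adjusted p = 0.0146). No ribosomal protein gene was called with library totals alone, without the pair or without the libraries of number 3, so these calls turned on those choices. Of 48 translation initiation and elongation factors 17 fell and 4 rose. erfa-1, a translation release factor, fell by 0.74 ± 0.09 on the log2 scale (adjusted p = 0.0016). The risers included gfm-1 (log2 fold change 0.68 ± 0.09, adjusted p = 0.00223) and tsfm-1 (0.51), both elongation factors of mitochondrial translation.

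The proteasome and the chaperonin CCT showed the same shape. All 33 proteasome genes had negative log2 fold changes, 19 of them called, with a median of -0.33. rpn-12, a subunit of the regulatory particle, had 62.6, 66.5 and 75 CPM on cco-1 RNAi and 87.8, 94.9 and 107 CPM on EV, without overlap (log2 fold change -0.51 ± 0.09, adjusted p = 0.00842). Of the 8 CCT subunits, which fold actin and tubulin, 7 were called, cct-8 with the largest fall (log2 fold change -0.43 ± 0.11, adjusted p = 0.0311). With library totals alone 5 proteasome genes and 1 CCT gene were called, and none of either list was called without the pair or without the libraries of number 3.

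ER folding and translocation genes had larger falls. On a list of 23 genes, which by its name pattern also takes in the exocyst gene sec-6, 13 were down-regulated and none was up-regulated, with a median log2 fold change of -0.50. pdi-2, a protein disulfide isomerase that also serves in collagen hydroxylation, had 2483, 2220 and 2791 CPM on cco-1 RNAi and 5442, 3960 and 5017 CPM on EV (log2 fold change -0.94 ± 0.07, adjusted p = 0.000235). sec-61.B, a subunit of the translocon, had 119, 121 and 129 CPM on cco-1 RNAi and 216, 239 and 244 CPM on EV (log2 fold change -0.92 ± 0.09, adjusted p = 0.000508). The groups were apart for both genes. The ER stress sensors ire-1, pek-1 and atf-6 and the chaperone gene hsp-4 did not pass the test. With library totals alone 11 of the 13 falls were still called, and 4 were called without the pair.

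Few cytosolic heat shock genes were called. Of 21 tested, sip-1 and hsp-17, both small heat shock proteins, rose and no other member was called. hsp-17 had 139, 134 and 132 CPM on cco-1 RNAi and 66.6, 46.2 and 74.2 CPM on EV, without overlap (log2 fold change 1.14 ± 0.14, adjusted p = 0.00149). The median log2 fold change of the list was -1.11 in pair 1, 0.51 in pair 2 and -0.89 in pair 3, and 14 members were called down without the libraries of number 2.

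Among genes of the lysosome, cathepsin-like cysteine proteases mostly fell and aspartyl proteases split. cpr-1, an intestinal cysteine protease, had 320, 210 and 220 CPM on cco-1 RNAi and 913, 633 and 816 CPM on EV, without overlap (log2 fold change -1.66 ± 0.10, adjusted p = 8.8e-05). asp-8 rose, with 479, 454 and 501 CPM on cco-1 RNAi and 175, 247 and 203 CPM on EV (log2 fold change 1.21 ± 0.12, adjusted p = 0.000574). Of 12 aspartyl proteases 6 rose and 3 fell, and of 10 cathepsin-like proteases 1 rose and 6 fell. asp-17 was the one with the largest fall (log2 fold change -3.08 ± 0.33). Of 20 vacuolar ATPase subunits 7 fell, none of them with library totals alone, and the intestinal subunit gene vha-6 rose by a log2 fold change of 0.29. Of 29 autophagy genes 6 rose, none fell and 23 did not pass the test, with a median log2 fold change of 0.24. Of these calls none was made without the pair, and 1 member was called without the libraries of number 3. atg-2, a lipid transfer protein of the growing autophagosome, rose by 0.72 ± 0.12 (adjusted p = 0.00559) and lgg-2, an LC3 homolog, by 0.57 ± 0.10 (adjusted p = 0.00721) on the log2 scale.

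**Figure D4:**
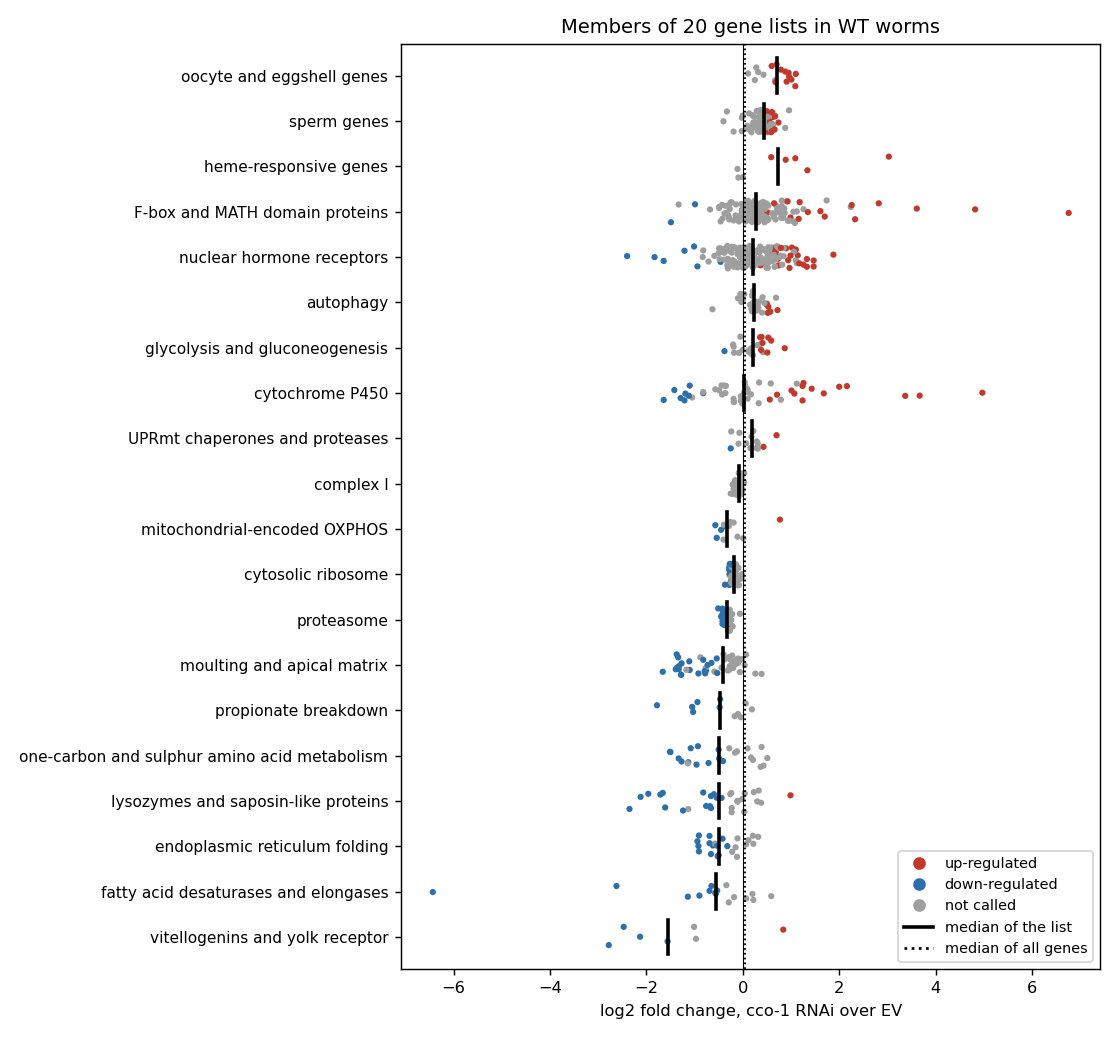
Log2 fold change, cco-1 RNAi over EV, of each tested member of 20 gene lists in WT (red up-regulated, blue down-regulated, gray not called), with the list median as a bar and the median of all genes, 0.05, as a dotted line. All 84 ribosomal protein genes and all 33 proteasome genes lie left of 0 in a narrow band, while F-box proteins, cytochromes P450 and nuclear hormone receptors spread widely; the point of fat-7 rests on 1 count on cco-1 RNAi and that of fbxa-88 on no count on EV.

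Detoxification families held strong rises of single genes and split within each family. Of 52 cytochrome P450 genes 14 rose and 8 fell, with a median log2 fold change of 0.03. cyp-14A4 (chromosome X, 13282043 to 13284197) had 51.7, 89.5 and 42.6 CPM on cco-1 RNAi and 2.43, 2.56 and 0.930 CPM on EV (log2 fold change 4.97 ± 0.20, adjusted p = 3.19e-05). cyp-33C8 had 171, 179 and 134 CPM on cco-1 RNAi and 15.6, 9.87 and 12.7 CPM on EV (log2 fold change 3.67 ± 0.17, adjusted p = 4.47e-05). Both were far above EV in every library, while cyp-35A5 fell, with 2.76, 2.06 and 2.80 CPM on cco-1 RNAi and 7.45, 7.35 and 8.94 CPM on EV (log2 fold change -1.64 ± 0.20).

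Of 58 UDP-glucuronosyl transferases, which make xenobiotics water-soluble, 14 rose and 10 fell. ugt-62 had 563, 679 and 562 CPM on cco-1 RNAi and 151, 124 and 132 CPM on EV (log2 fold change 2.14 ± 0.12, adjusted p = 6.82e-05). ugt-19 had 104, 91.0 and 89.1 CPM on cco-1 RNAi and 18.2, 13.8 and 15.1 CPM on EV (log2 fold change 2.60 ± 0.11, adjusted p = 3.19e-05). ugt-53 fell by 2.51 on the log2 scale. Of 38 glutathione transferases 10 fell and 3 rose. gst-10, the largest of the called falls, had 34.9, 39.0 and 43.6 CPM on cco-1 RNAi and 155, 187 and 166 CPM on EV, without overlap (log2 fold change -2.11 ± 0.11, adjusted p = 5.42e-05), while gst-14 rose by 2.51 ± 0.56 on the log2 scale (adjusted p = 0.0197).

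Transporters and metal-responsive genes followed the same split. pgp-9, a P-glycoprotein, had 493, 507 and 385 CPM on cco-1 RNAi and 149.5, 65.2 and 70.6 CPM on EV (log2 fold change 2.38 ± 0.21, adjusted p = 0.000361). pmp-5, a peroxisomal ABC transporter, had 61.7, 51.9 and 45.7 CPM on cco-1 RNAi and 244, 284 and 249 CPM on EV (log2 fold change -2.29 ± 0.12, adjusted p = 6.39e-05). The groups were apart for both, and 7 of 58 ABC transporters rose and 7 fell. cdr-4, a cadmium-responsive gene with a glutathione transferase-like fold, had 428, 422 and 374 CPM on cco-1 RNAi and 85.2, 88.1 and 64.4 CPM on EV (log2 fold change 2.38 ± 0.10, adjusted p = 3.19e-05). Its relative cdr-2 rose by 1.86 ± 0.11, and the metallothionein gene mtl-2 fell by 1.33 ± 0.23, both on the log2 scale.

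Of 8 tested heme-responsive genes 5 were up-regulated and none was down-regulated, with a median log2 fold change of 0.74, while 3 did not pass the test, 2 of them with negative values. hrg-2, made in the epidermis when heme is scarce, had 113, 117 and 70.5 CPM on cco-1 RNAi and 12.5, 22.8 and 5.58 CPM on EV (log2 fold change 3.03 ± 0.23, adjusted p = 0.0002). hrg-1, a heme importer of the intestine, had 213, 240 and 175 CPM on cco-1 RNAi and 105, 139 and 63.2 CPM on EV (log2 fold change 1.09 ± 0.13, adjusted p = 0.00158). In both genes every cco-1 RNAi library exceeded every EV library. hrg-3, which carries heme out of the intestine, rose by 1.34 ± 0.32 on the log2 scale (adjusted p = 0.0257), and hrg-7 and hrg-9 were also called. hrg-2 (12409415 to 12410513) and cdr-4 (12407366 to 12408625) are neighbours on chromosome V. Without the pair 1 heme-responsive gene was called.

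Oxidative stress genes changed little as a list, with 4 of 31 higher and 1 lower. The falling gene was msra-1, a methionine sulfoxide reductase, with 52.4, 47.8 and 48.1 CPM on cco-1 RNAi and 111, 158 and 115 CPM on EV, without overlap (log2 fold change -1.35 ± 0.13, adjusted p = 0.000582). sod-3, the manganese superoxide dismutase that DAF-16 raises, had 6.09, 7.90 and 3.61 CPM on cco-1 RNAi and 3.50, 4.70 and 1.5 CPM on EV. Its groups overlapped and it was higher in each pair (log2 fold change 0.91 ± 0.21, adjusted p = 0.0235). ctl-3, a catalase, rose by 0.75 ± 0.13 on the log2 scale.

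Defence lists differed in direction. Of 30 antimicrobial peptide genes 4 rose and 3 fell, with a median log2 fold change of 0.03. On the list of lysozymes and saposin-like proteins 15 of 30 fell and 1 rose, with a median log2 fold change of -0.49. ilys-5, an invertebrate-type lysozyme, had 122, 99.6 and 176 CPM on cco-1 RNAi and 631, 619 and 728 CPM on EV (log2 fold change -2.35 ± 0.12, adjusted p = 5.82e-05). lys-4 had 92, 54.8 and 57.8 CPM on cco-1 RNAi and 214, 300 and 267 CPM on EV (log2 fold change -1.96 ± 0.21, adjusted p = 0.000937). lys-2 was the one that rose, with 279, 356 and 267 CPM on cco-1 RNAi and 159, 164 and 131 CPM on EV (log2 fold change 0.99 ± 0.10, adjusted p = 0.000574). No group of these 3 genes overlapped its counterpart.

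C-type lectins, secreted carbohydrate-binding proteins, split into 25 that fell and 16 that rose among 108 tested. clec-17 had 39.5, 35.2 and 31 CPM on cco-1 RNAi and 4.85, 3.68 and 2.38 CPM on EV (log2 fold change 3.31 ± 0.16, adjusted p = 4.53e-05). clec-49 had 2.50, 2.24 and 3.25 CPM on cco-1 RNAi and 14.2, 12.9 and 17.6 CPM on EV (log2 fold change -2.48 ± 0.16, adjusted p = 0.000123). Among 25 dod and irg genes, named for control by DAF-16 and for response to infection, 6 rose and 4 fell. irg-8 had 64.8, 58.4 and 91.8 CPM on cco-1 RNAi and 372, 335 and 406 CPM on EV (log2 fold change -2.39 ± 0.11, adjusted p = 4.47e-05), whereas dod-22 rose by 2.00 ± 0.16 on the log2 scale.

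Cuticle and moulting genes gave a split and a fall. Of 138 cuticle collagens 24 rose and 27 fell, with a median log2 fold change of -0.06; without the libraries of number 2 the falls numbered 49. col-149 had 117, 110 and 185 CPM on cco-1 RNAi and 656, 448 and 759 CPM on EV (log2 fold change -2.19 ± 0.11, adjusted p = 5.99e-05). col-147 had 2008, 1267 and 1320 CPM on cco-1 RNAi and 1078, 620 and 672 CPM on EV (log2 fold change 0.97 ± 0.07, adjusted p = 0.000194). Each cco-1 RNAi library of these genes lay on its own side of all EV libraries.

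Of 52 genes of moulting and the apical matrix, the coat that patterns each new cuticle, 21 fell and none rose, with a median log2 fold change of -0.42 and 48 negative values. lpr-3, a lipocalin of that matrix, had 249, 248 and 370 CPM on cco-1 RNAi and 846, 549 and 854 CPM on EV (log2 fold change -1.37 ± 0.13, adjusted p = 0.000412). Another, lpr-6, fell by 1.39 ± 0.10 on the log2 scale. Of 62 hedgehog-like and patched-related genes, which nematodes use in the epidermis and its moults, 19 fell and 2 rose. wrt-10 had 93.1, 90.4 and 150 CPM on cco-1 RNAi and 283, 228 and 355 CPM on EV (log2 fold change -1.39 ± 0.10, adjusted p = 0.0002). dpy-7, a furrow collagen used as an epidermal marker, fell by 1.18 ± 0.12 on the log2 scale. Moulting genes are known to cycle within each larval stage, and the heterochronic genes, which set larval time, also differed, with 3 of 18 higher and 4 lower. Their median log2 fold change was 0.03, and none was called without the pair or without the libraries of number 3. lin-46 rose most among the called ones (log2 fold change 1.58 ± 0.38, adjusted p = 0.0267). lin-29, which drives the switch to the adult epidermis, fell by 0.54 ± 0.10 on the log2 scale (adjusted p = 0.0114), and lin-41, which acts against it, had 79.8, 115 and 72.2 CPM on cco-1 RNAi and 63.7, 67.6 and 45.1 CPM on EV (log2 fold change 0.59 ± 0.11, adjusted p = 0.0112). The part that a difference in developmental time has in any list was not tested.

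Oocyte and sperm lists held rises and no falls, with larger medians in pairs 2 and 3 than in pair 1. Of 17 oocyte and eggshell genes 11 were up-regulated, and all 17 had positive log2 fold changes, with a median of 0.27 in pair 1, 1.02 in pair 2 and 0.95 in pair 3. cpg-2, an eggshell proteoglycan, had 50.7, 568 and 215 CPM on cco-1 RNAi and 39.6, 230 and 84.9 CPM on EV (log2 fold change 1.01 ± 0.18, adjusted p = 0.00852). egg-1, a receptor of the oocyte surface, had 11.7, 113 and 43.8 CPM on cco-1 RNAi and 7.90, 45.8 and 17.6 CPM on EV (log2 fold change 1.09 ± 0.16, adjusted p = 0.00328). The groups overlapped in both, each gene was higher on cco-1 RNAi in each pair, and the libraries of number 1 were low on either kind of bacteria. rme-2, the yolk receptor of oocytes, behaved alike, with 23.4, 176 and 75.3 CPM on cco-1 RNAi and 18.8, 86.1 and 34.6 CPM on EV (log2 fold change 0.84 ± 0.16, adjusted p = 0.00975).

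On the list of germline P granule and meiosis genes 7 of 33 rose and 1 fell, with a median log2 fold change of 0.10 and 10 negative values. Its falling member was glh-1, a germline RNA helicase of P granules (log2 fold change -0.53 ± 0.09, adjusted p = 0.00721). Of 87 sperm genes 22 rose and none fell, with medians of 0.03, 0.61 and 0.55 in pairs 1, 2 and 3. ssq-4, a sperm-specific gene, had 33.6, 246 and 142 CPM on cco-1 RNAi and 30.8, 126 and 77.1 CPM on EV (log2 fold change 0.67 ± 0.16, adjusted p = 0.025). Without the libraries of number 1, 16 oocyte genes and 55 sperm genes were called. Without those of number 2 the counts were 8 and 3, without those of number 3 they were 2 and 0, and without the pair in the fit no gene of either list was called. Reads of the near-identical major sperm protein genes may be split among copies. In whole animals, more germ cells of a kind and more RNA per cell cannot be told apart, and likewise for fewer cells and less RNA in any other list. rnr-2, a ribonucleotide reductase subunit needed for DNA synthesis, had 104, 144 and 107 CPM on cco-1 RNAi and 49.1, 69.7 and 54.1 CPM on EV, without overlap (log2 fold change 1.04 ± 0.09, adjusted p = 0.000389). It was among 6 called risers of 61 replication and cell cycle genes.

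The yolk genes went the other way. vit-3 had 4.53, 60.7 and 61.1 CPM on cco-1 RNAi and 60.9, 321 and 326 CPM on EV (log2 fold change -2.78 ± 0.24, adjusted p = 0.000355). vit-1 (log2 fold change -2.13), vit-4 (-2.47) and vit-5 were also called, although counts of vit-3, vit-4 and vit-5 are uncertain because these copies are nearly identical. The groups of vit-1, vit-3 and vit-4 overlapped, and each of these genes was lower in each pair. Without the pair in the fit no gene of the list of vitellogenins and yolk receptor was called. vit-2 had 30.5, 1335 and 458 CPM on cco-1 RNAi and 189, 1169 and 758 CPM on EV, with overlapping groups, and did not pass the test (log2 fold change -1.01 ± 0.44, adjusted p = 0.147). Vitellogenins start in the intestine at the larval to adult switch, and their levels differed by number as the oocyte genes did.

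**Figure D5:**
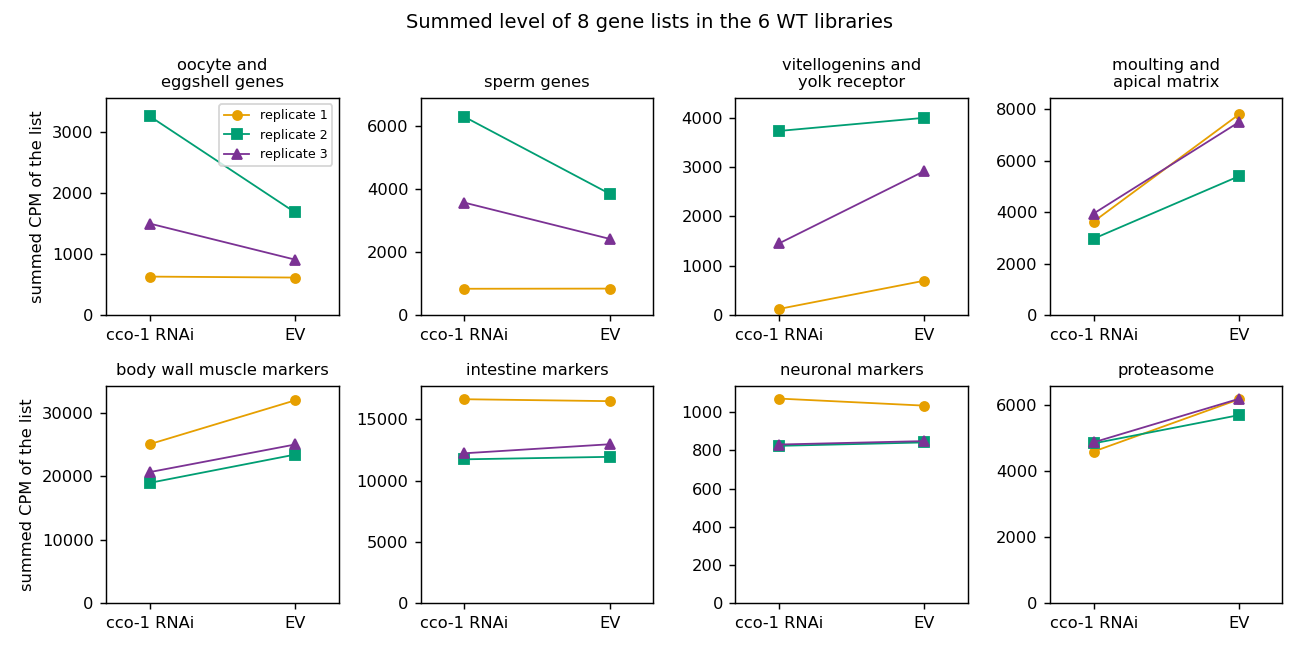
Summed level in CPM (vertical axes, from 0) of 8 gene lists in WT libraries on cco-1 RNAi (left of each panel) and on EV (right), with a line joining the libraries of one replicate number. Oocyte, sperm and yolk sums differed several-fold between numbers, with number 1 lowest, while moulting, muscle and proteasome sums were lower on cco-1 RNAi in each pair.

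Tissue markers moved in part. Of 21 body wall muscle genes 10 fell and none rose, with a median log2 fold change of -0.31, and their summed level was 25082, 18967 and 20665 CPM on cco-1 RNAi and 31996, 23431 and 25022 CPM on EV. mup-2, troponin T, had 815, 657 and 705 CPM on cco-1 RNAi and 1464, 1078 and 1199 CPM on EV, without overlap (log2 fold change -0.78 ± 0.07, adjusted p = 0.000415). Of 15 intestinal markers 5 fell and 1 rose, and elt-2, the defining intestinal GATA factor, did not pass the test, with 28.8, 22.5 and 18.0 CPM on cco-1 RNAi and 31.7, 24.8 and 21.8 CPM on EV. The summed intestinal level overlapped between groups, with 16644, 11733 and 12227 CPM on cco-1 RNAi and 16486, 11936 and 12965 CPM on EV. Of 22 neuronal markers 3 fell, among them the touch neuron tubulin genes mec-12 (log2 fold change -0.57) and mec-7 (-0.46), and 4 of 15 pharyngeal markers rose and 2 fell. No muscle or pharynx call was kept without the pair.

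Nuclear hormone receptors had more rises than falls. Of 179 nuclear hormone receptors, ligand-controlled transcription factors that are numerous in nematodes, 24 rose and 7 fell, with a median log2 fold change of 0.22. nhr-114, known for a role in diet-dependent and B12-dependent metabolism, was among those that fell, with 30.4, 36.5 and 29.2 CPM on cco-1 RNAi and 95.2, 107 and 95.3 CPM on EV (log2 fold change -1.64 ± 0.10, adjusted p = 9.23e-05). nhr-115 rose, with 24.2, 14.7 and 16.2 CPM on cco-1 RNAi and 6.15, 4.56 and 4.13 CPM on EV (log2 fold change 1.88 ± 0.14, adjusted p = 0.000218). The groups of both were apart. Of 151 F-box and MATH domain genes, substrate adaptors of ubiquitin ligases, 15 rose (9.93%, near the 8.20% of all genes) and 2 fell, with a median of 0.28. fbxa-88 had 0.780, 0.539 and 0.678 CPM on cco-1 RNAi and no count in any EV library, a level at least 12.9-fold higher when set against a floor of 3 counts over the EV group.

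With the TMM scaling, the lists of histone-modifying enzymes, histones, neuropeptides and insulin-like peptides each had a smaller share called than the 17.6% of all genes. Of 65 histone methylation and acetylation enzymes 4 rose and 3 fell, with 49 positive values. With library totals alone 19 of them rose and 1 fell, where 3292 of all 14261 genes tested were called. cbp-3, a relative of the histone acetyltransferase gene cbp-1, had 70.2, 57.7 and 63.9 CPM on cco-1 RNAi and 40.0, 25.1 and 34.8 CPM on EV, without overlap (log2 fold change 0.96 ± 0.12, adjusted p = 0.00146), and sir-2.1, the sirtuin gene, rose by 0.61 ± 0.16 on the log2 scale (adjusted p = 0.0332). Of 53 histone genes 2 rose and 2 fell, and counts of histone copies are uncertain. Of 90 neuropeptide genes 2 rose and 1 fell, and of 19 insulin-like genes ins-35 alone was called, as a fall (log2 fold change -1.17 ± 0.27). By chromosome, the X stood out among the nuclear chromosomes in the share that fell, with 295 of 1975 genes down-regulated (14.9%) and 112 up-regulated (5.67%). The autosomes had 7.51% to 9.26% of their genes down-regulated and 7.26% to 10.5% up-regulated.

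A survey of gene-name classes covered families inside and outside the lists. Of 128 classes with at least 10 tested members, 25 had calls only as rises, 35 only as falls, 51 in both directions and 17 had none. abu genes, known as activated in blocked unfolded protein response, had 7 of 11 members up-regulated, 1 down-regulated and a median log2 fold change of 0.50. The risers abu-1 and abu-8 are also on the list of pharyngeal markers, so the class and that list are not separate. abu-1 had 135, 121 and 59.2 CPM on cco-1 RNAi and 66.9, 67.2 and 47.5 CPM on EV, with overlapping groups and a higher level in each pair (log2 fold change 0.73 ± 0.14, adjusted p = 0.0105). pqn genes, which code for proteins rich in glutamine and asparagine and overlap the abu family, had 13 of 50 members up and 1 down. The msp genes had 13 of 28 up, the zinc finger class ztf had 5 of 25 up, and the pals class had 3 of 13 up. On the falling side, dpy genes had 11 of 24 down, eif genes 11 of 25, spp (saposin-like) genes 9 of 20 and alh (aldehyde dehydrogenase) genes 6 of 12. No member was called among 25 nucleoporin (npp), 27 globin (glb), 33 homeobox (ceh), 36 neuropeptide receptor (npr), 30 FMRFamide-like (flp) or 20 Mediator (mdt) genes, of which 3 npp, 1 ceh, 2 flp and 2 mdt genes were called up with library totals alone. None of the abu, pqn or msp calls held without the pair.

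Many of the largest changes were in genes known by sequence names alone, beside fat-7 and fbxa-88, whose values rest on 1 and 0 counts in one group. F22B3.7 (chromosome IV, 11417581 to 11421796) had 21.7, 23.2 and 19.6 CPM on cco-1 RNAi and 0.0565, 0.372 and 0.0517 CPM on EV (log2 fold change 6.96 ± 0.35, adjusted p = 5.42e-05). F55G11.7 had 5.31, 6.06 and 7.23 CPM on cco-1 RNAi and 0.113, 0.140 and 0.0517 CPM on EV (log2 fold change 5.84 ± 0.39, adjusted p = 0.000123). C54F6.18 had 2.86, 4.26 and 2.89 CPM on cco-1 RNAi and 0.0565, 0 and 0 CPM on EV, which is 214 counts against 1 count and a level 197 times higher with a 95% counting interval of 35 to 7814. All 3 were close to silent on EV. On the falling side, the genes D1014.6 and D1014.7 had log2 fold changes of -4.41 ± 0.40 and -3.97 ± 0.39. D1014.6 had 0, 0.269 and 0.361 CPM on cco-1 RNAi and 1.07, 5.40 and 7.03 CPM on EV. BE0003N10.6 had 0.832, 3.01 and 5.15 CPM on cco-1 RNAi and 12.1, 59.2 and 50.3 CPM on EV (log2 fold change -3.78 ± 0.20, adjusted p = 6.76e-05). In these falling genes the libraries of number 1 were lowest on either kind of bacteria, as for the vitellogenins, whereas F54B11.11 fell alike in each pair, with 1.09, 1.35 and 1.49 CPM on cco-1 RNAi and 9.43, 10.2 and 13.3 CPM on EV (log2 fold change -3.06 ± 0.20, adjusted p = 0.000123).

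The same treatment in lin-40(yth27) was set beside these values in a fit of all 12 libraries. The change upon cco-1 RNAi differed between the genotypes at an adjusted p under 0.05 in 0 of 14867 genes by edgeR, with a lowest adjusted p of 0.388 and 1688 genes at an unadjusted p under 0.05. DESeq2 called 55 genes and a fit with the pair kept in WT alone called 7. In this fit of 12 libraries, which kept no pair, cco-1 RNAi had 173 called genes (1.16%) in lin-40(yth27) and 929 in WT. The paired WT fit called 2508, so that count is not on the same footing as the 173. cox-5B had a log2 fold change of -0.92 in lin-40(yth27), against -1.64 in the paired WT fit. The difference between genotypes did not pass the test for cox-5B (adjusted p = 0.394). Of the 1170 genes up-regulated in the paired WT fit, 699 had a positive log2 fold change in lin-40(yth27). Of the 1338 down-regulated, 998 had a negative one. These genes were picked by their WT values. Over all 14261 genes tested in WT, the median log2 fold change in lin-40(yth27) was -0.03, just below 0. The shares of all genes with each sign in lin-40(yth27) were not counted, so these counts have no like background. Of 19 named genes with a log2 fold change of at least 3 in the paired WT fit, 8 were also called up in lin-40(yth27) without a pair and 11 were not called. Log2 fold changes there were 6.53 for F22B3.7, 3.68 for cyp-14A4, 2.91 for cyp-33C8 and 2.94 for hrg-2, which were called, and 1.48 for ech-9, 0.66 for ugt-18 and 0.81 for F15B9.6, which were not. For none of these 7 genes did the difference between genotypes pass the test. The falls of sams-1 and pdi-2 were smaller in lin-40(yth27), with log2 fold changes of -0.29 and -0.09, but the difference did not pass the test for either (adjusted p = 0.394 for both). The median of the 84 ribosomal protein genes was 0.38 in lin-40(yth27), against -0.19 in WT, and its difference was not tested as a list.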

How the data were processed

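RNA-seq was analysed from 6 WT libraries, with 12 libraries in the comparison of genotypes. The authors trimmed, aligned with TopHat and quantified with RSEM. The deposited values were taken as RSEM expected counts per gene, read from the values and not stated in the methods. For TopHat a version and an orientation mode are stated, but the build, the annotation, the RSEM version and whether counting used strand were not given in the sources used here. Positions and symbols come from the Ensembl and RefSeq annotation of WBcel235, matched by gene ID, and 43818 of 46920 loci had a symbol. 0 columns belonged to other samples. Of the values, 19382 were not whole, and all were rounded.

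Genes passing filterByExpr were scaled by TMM and fitted in edgeR 4.0.16 (R 4.3.3) with the quasi-likelihood test and the replicate number as a block. The adjusted p (Benjamini-Hochberg) had to be under 0.05. CPM uses TMM-scaled totals. Each standard error is the log2 fold change divided by the root of its F value. Fitted log2 fold changes of genes near 0 counts depend on edgeR's prior count. The pairing comes from the numbers in the sample titles. Deviations of libraries with different numbers correlated at -0.657 to 0.362, and cco-1 RNAi number 3 correlated slightly more with EV number 2 (0.362) than with its own number (0.341). The common dispersion was 0.0214 with the block and 0.0960 without. Within each group, libraries varied beyond sampling noise (chi-square of 25.5 to 97.5 per degree of freedom). Intervals and floors cover counting error only.

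The procedure was tested on simulated data of 14261 genes, where it found 68 of 100 2-fold and 89 of 100 4-fold changes, with 16 false calls. In this 1 simulation the false calls were a larger share of all calls than the threshold of 0.05. Fewer genes were changed than the 2508 called in the data. The simulated counts held pair effects of the form that the fit assumes, so the simulation cannot show whether the pairing holds. Alternatives were no block, all 12 libraries, other scalings and filters, DESeq2 1.42.0, a length trend (spline, 4 degrees of freedom), a threshold of 0.01 and each pair left out. With the block, a library without its partner carries no information, so pairs were left out whole.

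The samples, gene lists and tests were chosen with earlier results of these data known. Named genes are cox-5B, the up to 3 called members of each list that rose and that fell most with 1 direction in all 3 pairs, the 15 largest rises and falls of called genes with at least 1 CPM and 1 direction in all pairs, and hsp-6, hsp-60, atfs-1, dve-1, lin-40, col-19, elt-2, rme-2, vit-2 and sod-3. Other members are named where a list is completed, chosen after their values were seen. No columns of the authors' own comparisons were used.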

Additional observations from a re-analysis of the deposited data

How the results depend on the processing

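Under these alternatives no called result reversed its direction. Without the replicate block (pairing) the 6 libraries gave 274 DEGs, 108 up and 166 down, against 2508, 1170 and 1338 with it. The 12 libraries gave 929 (323 up, 606 down) without the block and 1631 (647 up, 984 down) with the block in WT alone. An adjusted p under 0.01 left 926 (331 up, 595 down), and library totals alone called 2393 up. Leaving out 1 pair gave 809 to 2711 DEGs, 307 to 1379 up and 502 to 1397 down, the lowest without number 3, and 789 of those 809 were also called with all pairs. The difference between the genotypes was called in 0 genes, and in 55 by DESeq2 and 7 with the block in WT alone. Of 273 named called genes, 74 stayed called without the block, 145 without number 3, 239 without number 1, 242 without number 2 and 245 with library totals alone. List medians changed sign in 16 of 69 lists with library totals alone, which moved the median of all genes from 0.05 to 0.19, and in at most 5 under each other setting. The cause of these shifts was not tested. With 3 pairs, the simulated data left 32 of 100 2-fold changes uncalled.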
